A study of Mus musculus with 10 samples.

Results

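The 10 genes described here are a selection from the circadian clock of the liver and its direct outputs: *Arntl*, *Npas2*, *Per1*, *Per2*, *Per3*, *Cry1*, *Nr1d1*, *Nr1d2*, *Dbp* and *Ciart*. They were chosen by symbol, each with a single Ensembl identifier, and all 10 were found among the 15126 protein-coding genes of the deposited table. Livers came from male *db/db* mice, which lack the leptin receptor and become obese and diabetic, were 10 weeks old, and were kept under alternating light and dark. All 10 mice had received adeno-associated virus 8 (AAV8), and the livers were taken 5 weeks later. In the 5 AAV8-Control mice the vector carried enhanced green fluorescent protein (eGFP). The other 5 mice received another AAV8 vector, and their livers enter only ranges over all livers and measures taken after the mean of each vector group was subtracted. The labels give liver as the tissue but also mention cultured primary hepatocytes, and the study's description of whole liver is followed. The promoter in the vectors, the hour of collection and the feeding state of the sequenced mice are not given in the sources used here. Levels are given as CPM, a gene's reads scaled to all reads that the library had on genes.

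In the liver clock, BMAL1 (encoded by *Arntl*) pairs with CLOCK or NPAS2 and switches on genes that carry E-boxes, among them the *Per*, *Cry* and *Nr1d* genes, *Dbp* and *Ciart*. The PER and CRY proteins hold this pair back, and REV-ERB alpha and beta (*Nr1d1*, *Nr1d2*) repress *Arntl* and *Npas2* through ROR elements, so that activator and output transcripts peak at opposite times of day. DBP binds D-boxes and passes the rhythm on to metabolic genes, including genes of drug and sterol metabolism.

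The start-site windows of 4 of the genes are shown because they hold the elements that these proteins are known to bind. Sequences are RefSeq windows of GRCm38.p6, from 250 bases before to 50 bases after a transcript start, and 9 of the 10 genes had such a window, *Per2* being the other. Capitals mark the E-box CACGTG, the D-box TTATGNAA (N is any base) and the ROR element TAGGTCA, searched on both strands. The windows are chr3:95882179-95882478 on the reverse strand for *Ciart*, chr4:151044616-151044915 on the reverse strand for *Per3*, chr11:69098699-69098998 on the forward strand for *Per1* and chr7:113207261-113207560 on the forward strand for *Arntl*.
Ciart: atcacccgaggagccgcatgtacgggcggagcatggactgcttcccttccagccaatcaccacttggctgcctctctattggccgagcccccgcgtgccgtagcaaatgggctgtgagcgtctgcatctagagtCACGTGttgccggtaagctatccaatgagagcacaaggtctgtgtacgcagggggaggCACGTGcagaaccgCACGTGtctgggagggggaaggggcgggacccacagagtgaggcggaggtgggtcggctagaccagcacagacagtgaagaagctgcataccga
Per3: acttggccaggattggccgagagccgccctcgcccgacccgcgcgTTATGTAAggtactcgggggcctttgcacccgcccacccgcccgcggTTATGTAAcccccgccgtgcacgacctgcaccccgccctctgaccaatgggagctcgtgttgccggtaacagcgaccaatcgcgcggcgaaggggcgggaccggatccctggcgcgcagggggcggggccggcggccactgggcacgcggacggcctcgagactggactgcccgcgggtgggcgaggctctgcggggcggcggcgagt
Per1: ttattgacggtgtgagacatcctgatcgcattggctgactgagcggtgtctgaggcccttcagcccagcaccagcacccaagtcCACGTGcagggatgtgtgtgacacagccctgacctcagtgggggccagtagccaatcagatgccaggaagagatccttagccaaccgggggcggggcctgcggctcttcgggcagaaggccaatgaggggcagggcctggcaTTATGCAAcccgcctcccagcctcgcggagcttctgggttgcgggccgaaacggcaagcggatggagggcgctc
Arntl: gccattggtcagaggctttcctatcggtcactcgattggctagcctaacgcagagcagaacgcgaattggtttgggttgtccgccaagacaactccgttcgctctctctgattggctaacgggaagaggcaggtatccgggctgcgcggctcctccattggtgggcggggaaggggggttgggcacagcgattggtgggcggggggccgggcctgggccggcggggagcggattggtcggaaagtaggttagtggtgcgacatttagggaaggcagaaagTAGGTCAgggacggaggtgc
*Ciart*, whose product CHRONO is a repressor of the clock's activator, has 3 E-boxes in this window, the first base of each lying 116, 58 and 44 bases before the start. *Per3* has 2 D-boxes, beginning 205 and 158 bases before the start. *Per1* has 1 E-box and 1 D-box, beginning 166 and 24 bases before the start. *Arntl* has 1 ROR element, which begins at base 31 of the transcript. *Arntl* and *Per1* each have a second RefSeq window, at chr7:113207215-113207514 and chr11:69099902-69100201, which holds none of the 3 motifs and is not shown. *Cry1* also has 1 E-box, and the windows of *Npas2*, *Nr1d1*, *Nr1d2* and *Dbp* hold none of the 3 motifs. Of 32817 such windows in the mouse genome, 7.15% hold the E-box, 3.39% the D-box and 2.61% the ROR element. These matches describe the letters only.

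Libraries held 19499795 to 35498596 reads, and the 10 genes had 16 to 3897 reads in any library, fewest for *Npas2*. Of the hepatocyte markers all 10 were detected, at a summed 105700 to 142700 CPM, against 141 to 289 CPM for the 8 Kupffer cell markers and 138 to 278 CPM for the 8 sinusoidal endothelial markers. In whole liver, fewer cells of a type and less RNA per cell cannot be told apart. The study calls the control mice littermates, but which mouse came from which litter, the cage and the day of collection are not given in the sources used here. The p-values below apply to these livers only and treat the livers of a group as interchangeable, which litter, cage or day could break.

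In GRCm38 the activators lie, with their strand, as *Arntl* at chr7:113207465-113314126 (forward) and *Npas2* at chr1:39193731-39363236 (forward). The repressors are *Per1* at chr11:69095217-69109960 (forward), *Per2* at chr1:91415982-91459324 (reverse), *Per3* at chr4:151003652-151044665 (reverse), *Cry1* at chr10:85131700-85185064 (reverse) and *Ciart* at chr3:95878503-95882251 (reverse). The REV-ERB genes are *Nr1d1* at chr11:98767932-98775333 (reverse) and *Nr1d2* at chr14:18204054-18239127 (reverse), and the output factor is *Dbp* at chr7:45705088-45710203 (forward). Per kilobase of exon, *Nr1d1* was the most abundant of the 10 genes in AAV8-Control livers, at 42.7 ± 5.57 CPM per kb (SD, n = 5). *Dbp* followed at 12.95 ± 1.96 CPM per kb, and *Nr1d2* at 8.38 ± 0.644 CPM per kb. *Per1*, *Per2*, *Ciart*, *Cry1*, *Per3* and *Arntl* came next in that order, from 5.67 ± 2.21 CPM per kb for *Per1* to 1.14 ± 0.262 CPM per kb for *Arntl*. *Npas2* was lowest at 0.546 ± 0.295 CPM per kb. From *Dbp* down to *Npas2* the ranges of neighbouring genes over the 10 livers overlapped. The gap between *Nr1d1* (lowest liver 33.0 CPM per kb) and *Dbp* (highest liver 21.7 CPM per kb) was the only one without overlap. Of the exon bases of *Dbp*, 18.0% also belong to an exon of *Sphk2* on the opposite strand, and 8.55% of those of *Nr1d1* belong to an exon of *Thra*. The counting is not stated to use strand, so reads there cannot be assigned to a single gene and levels of *Dbp* and *Nr1d1* are less certain per length.

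Of the activators, *Arntl* was at 10.4, 10.0, 6.82, 6.09 and 9.47 CPM in AAV8-Control livers 1 to 5. Livers 3 and 4 were the low ones, and over all 10 livers the lowest, median and highest levels were 3.69, 9.57 and 14.5 CPM. *Npas2*, the partner that can stand in for CLOCK, was at 5.08, 2.07, 2.37, 1.49 and 2.08 CPM in the same livers. Liver 1 stood above the other 4, and the range over all livers was 0.739 to 5.08 CPM.

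Among the period genes, which encode repressors that accumulate as the activator runs, *Per1* was at 47.4, 23.1, 43.5, 21.7 and 24.2 CPM in AAV8-Control livers 1 to 5. Livers 1 and 3 were apart from the other 3, and over all 10 livers *Per1* ran from 21.7 to 82.3 CPM with a median of 41.1 CPM. *Per2* was at 21.1, 20.3, 31.0, 28.2 and 22.9 CPM, and *Per3* at 15.3, 13.4, 19.6, 16.7 and 13.2 CPM. For both genes livers 3 and 4 were highest, the livers in which *Arntl* was lowest. Over all 10 livers *Per2* ranged from 20.3 to 35.3 CPM and *Per3* from 11.4 to 27.2 CPM.

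*Cry1*, a cryptochrome and the late repressor of the loop, was at 6.97, 6.45, 7.72, 7.73 and 7.06 CPM in AAV8-Control livers 1 to 5. These lay close together, with a mean of 7.19 ± 0.543 CPM (SD, n = 5), and over all 10 livers the median was 7.62 CPM and the highest level 12.6 CPM. *Ciart*, the other repressor, was at 6.56, 6.64, 10.3, 6.998 and 4.11 CPM in AAV8-Control livers 1 to 5. Liver 3 was highest and liver 5 lowest, and over all 10 livers *Ciart* ran from 4.11 to 22.7 CPM with a median of 6.82 CPM.

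The REV-ERB genes had the smallest within-group SD of the 10 genes over all livers, although in AAV8-Control livers alone *Cry1* had the smallest. *Nr1d1* was at 136.7, 133, 101, 142 and 143 CPM in AAV8-Control livers 1 to 5, and *Nr1d2* at 45.8, 40.4, 45.1, 50.3 and 45.1 CPM. Over all 10 livers *Nr1d1* ranged from 101 to 148 CPM and *Nr1d2* from 39.5 to 63.2 CPM. The low *Nr1d1* level of liver 3 came from the deepest library. Across the 10 livers with the group mean subtracted, the Pearson r of *Nr1d1* with log2 total reads was -0.68, the largest in size for the 10 genes, and the part of depth in its level was not tested.

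*Dbp*, a PAR bZIP transcription factor and the output of the loop, was at 40.2, 34.3, 39.8, 47.2 and 32.2 CPM in AAV8-Control livers 1 to 5. Liver 4 was highest, the liver with the least *Arntl* of these 5. Over all 10 livers *Dbp* ran from 28.2 to 64.9 CPM with a median of 39.5 CPM.

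**Figure D1:**
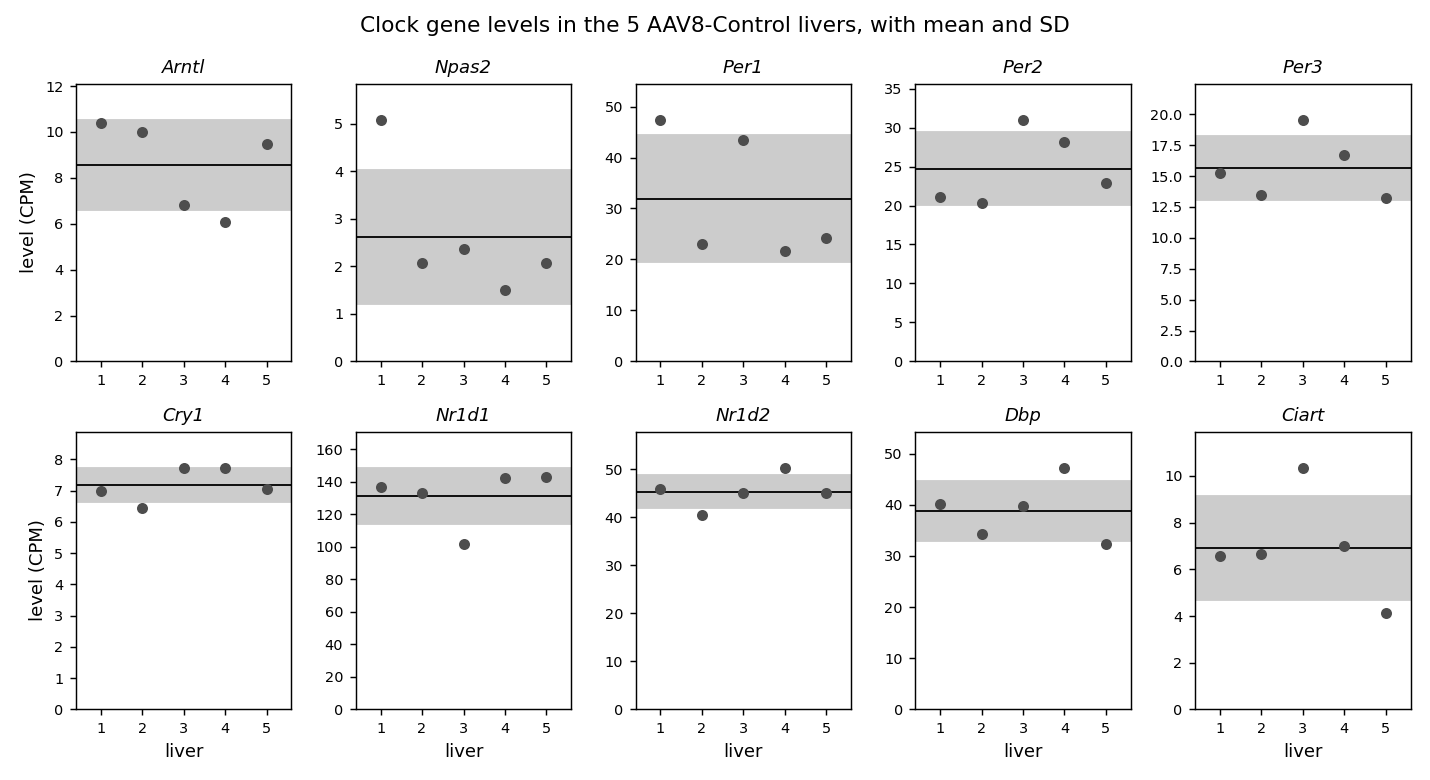
Level of each clock gene in CPM (vertical axes, starting at 0) in AAV8-Control livers 1 to 5 (horizontal axes), with a point for each liver, a line for the mean and a grey band for 1 SD on each side of it. *Cry1* stays between 6.45 and 7.73 CPM, while *Npas2* reaches 5.08 CPM in liver 1 and lies between 1.49 and 2.37 CPM in the other livers.

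Most of the clock genes varied widely between livers of the same group. The SD of log2(CPM + 1) within groups had a median of 0.157 over the 11027 genes that averaged 1 CPM or more. Ranked by this SD, 7 of the 10 clock genes lay in the top 10%, which holds 10.0% of all genes by construction. *Ciart* was at percentile 99.4 with an SD of 0.674, *Npas2* at 99.1 with 0.573, *Per1* at 98.8 with 0.541 and *Arntl* at 98.8 with 0.536. *Per3*, *Dbp* and *Per2* followed at percentiles 97.0, 96.1 and 90.6. *Cry1*, *Nr1d2* and *Nr1d1* lay outside, at percentiles 81.1, 73.1 and 71.3. In AAV8-Control livers alone the SD was smaller for each of the 7 genes. It was 0.528 for *Per1*, 0.485 for *Npas2*, 0.408 for *Ciart* and 0.313 for *Arntl*. For *Per2*, *Per3* and *Dbp* it was 0.257, 0.220 and 0.210. Percentiles for AAV8-Control livers alone are not given. The lower a gene's count, the more counting error adds to this SD, and *Npas2* had 16 to 119 reads per library.

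**Figure D2:**
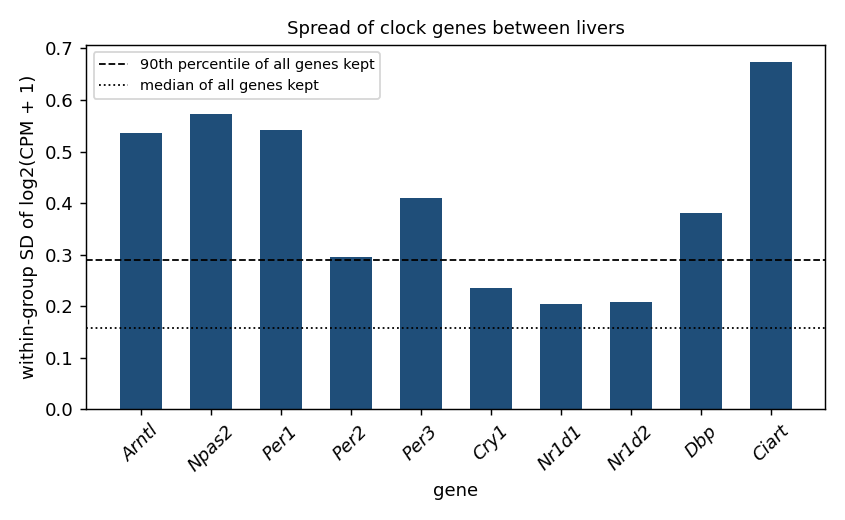
Within-group SD of log2(CPM + 1) over 10 livers (vertical axis, from 0) for each clock gene, with a dotted line at the median of all genes kept (0.157) and a dashed line at the lower edge of the top 10% (0.290). The bars of 7 genes pass the dashed line, *Ciart* by the most at 0.674, and those of *Cry1*, *Nr1d1* and *Nr1d2* lie between the lines.

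Livers with much *Dbp* had little *Arntl*. In the order of rising *Arntl*, from 3.69 through 6.09, 6.82, 6.82, 9.47, 9.66, 10.0, 10.4 and 12.7 to 14.5 CPM, the livers had 64.9, 47.2, 39.8, 47.5, 32.2, 39.2, 34.3, 40.2, 28.8 and 28.2 CPM of *Dbp*. The liver with the least *Arntl* thus had the most *Dbp*, and the pair of livers with the most *Arntl* had the least. The ratio of *Dbp* to *Arntl* CPM was 3.86, 3.42, 5.84, 7.75 and 3.40 in AAV8-Control livers 1 to 5, and over all 10 livers it ran from 1.95 to 17.6 with a median of 3.96.

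To keep a difference between groups from giving a correlation, the group mean was subtracted from log2(CPM + 1), and p-values came from all 14400 orderings of the livers within groups. Over the 10 livers the Pearson r of *Arntl* and *Dbp* was -0.95 (exact permutation p = 0.00194, adjusted p = 0.0875 over the 45 pairs of clock genes). The Spearman rho was -0.87 (exact permutation p = 0.00979). Without the 2 livers farthest from the median of *Arntl*, r was -0.85. Deviations of *Arntl* from the group mean ran from -0.41 to 0.28 in AAV8-Control livers and from -1.04 to 0.68 in the others. Those of *Dbp* ran from -0.25 to 0.29 and from -0.48 to 0.70. The livers of the other vector thus weigh more in this r, and r in each group alone is not given for any pair.

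**Figure D3:**
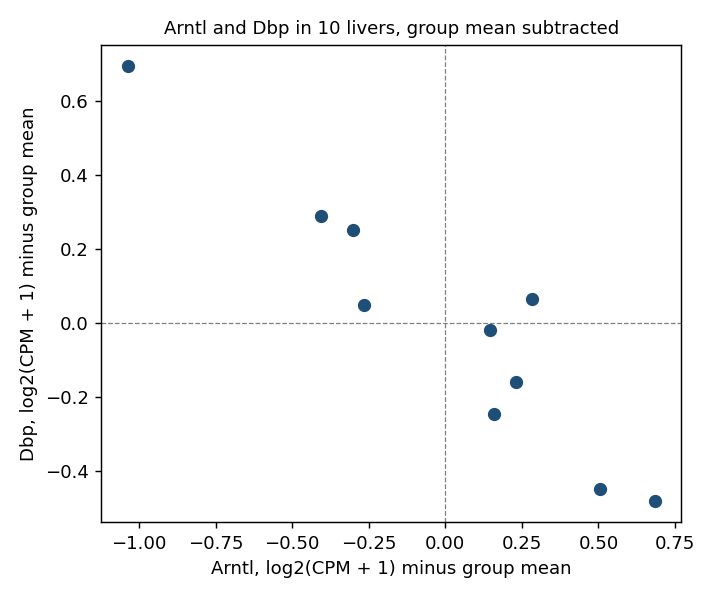
*Dbp* (vertical axis) against *Arntl* (horizontal axis) in 10 livers, both as log2(CPM + 1) minus the mean of the liver's group, with a point for each liver and dashed lines at 0. The points run from the upper left to the lower right, with an r of -0.95.

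Of the 45 pairs of clock genes, 12 had an exact permutation p under 0.05, 5 with a negative and 7 with a positive r. By the same test, 6.37% of the 110150 relations between a clock gene and another gene kept had a p under 0.05, from 4.30% for *Dbp* to 10.5% for *Npas2*. Adjusted over the 45 pairs, 0 were under 0.05, with *Arntl* and *Dbp* lowest. By Spearman rho, 12 pairs had an exact permutation p under 0.05 and 0 had an adjusted p under 0.05, and 8 pairs passed by both measures. *Npas2* with *Per3*, *Npas2* with *Nr1d2*, *Per1* with *Ciart* and *Per2* with *Nr1d2* passed by Pearson r alone, and *Arntl* with *Ciart*, *Per2* with *Ciart*, *Nr1d2* with *Dbp* and *Dbp* with *Ciart* by Spearman rho alone. The 5 negative pairs each joined an activator, *Arntl* or *Npas2*, with a repressor or output, and the 7 positive pairs lay within these arms. With a single liver left out, the number of pairs with an exact p under 0.05 ranged from 6 to 11, with 7 without AAV8-Control liver 4 and 6 or 7 without each of 3 livers of the other vector.

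Among these pairs, *Arntl* and *Per2* had an r of -0.84 (rho -0.89, exact permutation p = 0.00764 and 0.00222), and -0.92 without the 2 livers farthest from the median of *Arntl*. *Arntl* and *Per3* had an r of -0.77 (rho -0.82, exact permutation p = 0.0451 and 0.0247), and -0.75 without the same livers. *Arntl* and *Npas2* had an r of 0.70 (rho 0.76, exact permutation p = 0.0495 and 0.0365) that was 0.45 without those 2 livers. *Npas2* gave -0.62 with *Per2* (rho -0.53, exact permutation p = 0.0938 and 0.147), a pair outside the 12.

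Within the repressor arm, *Per3* and *Nr1d2* had an r of 0.91 (rho 0.83, exact permutation p = 0.00479 and 0.0348), and 0.57 without the 2 livers farthest from the median of *Per3*. *Per2* and *Per3* had an r of 0.85 (rho 0.81, exact permutation p = 0.00792 and 0.00757), and 0.84 without the 2 livers farthest for *Per2*. *Per1* and *Ciart* had an r of 0.69 (rho 0.48, exact permutation p = 0.0373 and 0.196), and 0.57 without the 2 farthest for *Per1*. For *Dbp*, r was 0.78 with *Per2* (rho 0.77, exact permutation p = 0.0179 and 0.0187) and 0.82 with *Per3* (rho 0.78, exact permutation p = 0.0283 and 0.0375), which became 0.69 and 0.48 without 2 livers. The other 3 pairs were *Npas2* with *Nr1d2* (r = -0.72), *Npas2* with *Per3* (r = -0.71) and *Per2* with *Nr1d2* (r = 0.73), with exact permutation p of 0.0388, 0.0466 and 0.0397. Their rho were -0.70, -0.66 and 0.62, with exact permutation p of 0.0699, 0.0912 and 0.0758, and r without 2 livers was -0.79, -0.71 and 0.665. Adjusted p was 0.0891 for *Arntl* with *Per2*, *Per2* with *Per3* and *Per3* with *Nr1d2*, 0.161 for *Per2* with *Dbp* and 0.186 for the others but *Arntl* with *Dbp*, all by exact permutation.

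*Cry1* and *Nr1d1* stood outside these pairs. None of the 12 involved either gene, and the r of *Cry1* was 0.15 with *Arntl* and -0.12 with *Dbp*. For *Nr1d1* these were -0.33 and 0.39. *Per1* entered by 1 pair only, that with *Ciart*, and its r was -0.14 with *Arntl* and 0.29 with *Dbp*.

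**Figure D4:**
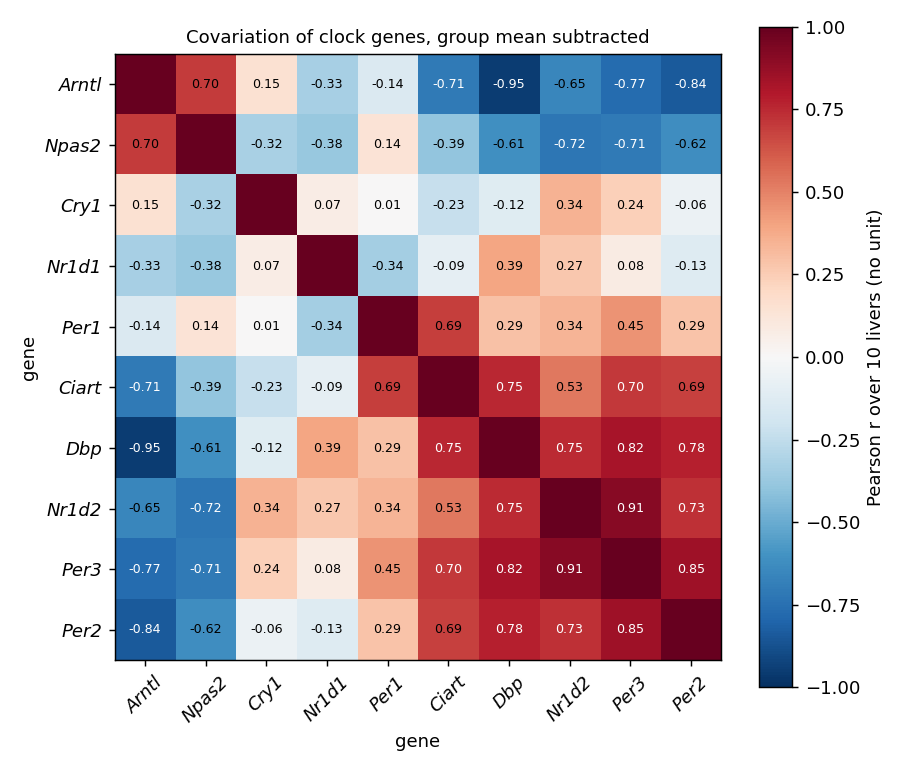
Pearson r over 10 livers for each pair of clock genes, on log2(CPM + 1) with the group mean subtracted, printed in each cell and coloured from blue (-1) through white (0) to red (1). *Arntl* and *Npas2* are negative with *Ciart*, *Dbp*, *Nr1d2*, *Per3* and *Per2*, which are positive with one another, and *Arntl* and *Dbp* give the strongest value at -0.95.

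*Rgs16*, a rhythmic liver gene for a regulator of G-protein signaling, passed the test with none of the clock genes within groups. It was at 44.3, 159, 97.9, 89.2 and 56.1 CPM in AAV8-Control livers 1 to 5. With the group mean subtracted, its r was largest in size with *Cry1* at -0.53, *Per1* at -0.51 and *Nr1d2* at -0.48 over 10 livers. These had rho of -0.58, -0.54 and -0.43, and exact permutation p for r of 0.162, 0.164 and 0.197. Without the 2 livers farthest from the median of each clock gene, r was -0.33, -0.41 and 0.044. Of the 10 relations, 0 had an exact permutation p under 0.05, the adjusted p was at least 0.655, and r was 0.051 with *Dbp* and -0.22 with *Arntl*. By the same test 6.37% of the relations between a clock gene and another gene kept had such a p. A count of 0 in 10 is near that share and sets *Rgs16* apart from other genes in no way.

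The other loop genes were set beside *Arntl* and *Dbp* in the same way, as a description. *Clock*, the usual partner of BMAL1, was at 44.99 ± 3.84 CPM in AAV8-Control livers (SD, n = 5), with an r of 0.33 with *Arntl* and -0.24 with *Dbp*. *Cry2*, the second cryptochrome, had -0.31 and 0.47. *Tef* and *Hlf*, PAR bZIP genes like *Dbp*, had r of 0.83 and 0.74 with it. *Nfil3*, whose product E4BP4 opposes the PAR bZIP factors at D-boxes, had the reverse signs, at -0.70 with *Dbp* and 0.75 with *Arntl*. *Bhlhe41*, an E-box repressor, had 0.89 with *Dbp*, the highest of the 19 other clock genes, and -0.85 with *Arntl*. Its relative *Bhlhe40*, added to the named genes after its values were seen, had 0.12 with *Dbp* and 0.028 with *Arntl*.

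Over longer lists, the r with *Dbp* was positive for 10 of 19 other clock genes and for 17 of 24 rhythmic liver output genes, beside 39.7% of all genes kept. It ranged from -0.72 to 0.89 in the first list and from -0.76 to 0.895 in the second. Of the genes that follow body temperature 7 of 15 were positive with *Dbp*, and of the glucocorticoid-responsive genes 9 of 14. The sign was opposite for *Arntl* in 17, 21, 14 and 11 of the genes of these 4 lists, as it was for 9875 of 11015 genes kept.

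The genes most like *Dbp* over the 10 livers, outside the 10 clock genes, included *Mtss1*, *Fastkd2*, *Cpm* (the gene for carboxypeptidase M) and *Wee1*, with r of 0.95, 0.92, 0.91 and 0.89. All 4 were highest in the liver where *Dbp* was highest, and *Wee1*, the cell cycle kinase gene, ranged from 2.91 to 8.36 CPM. The 5 most like *Arntl* were *Smarcd1*, *Phldb3*, *Fblim1*, *Msh6* and *Cdkn2d*, with r of 0.96, 0.95, 0.90, 0.89 and 0.89. All 5 were highest in the liver where *Arntl* was highest. These are the extremes of 11014 correlations over 10 livers and carry no test.

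Summed markers of liver cell types were set beside the *Arntl* and *Dbp* pattern, with the group mean subtracted over 10 livers. Hepatocyte markers had an r of 0.33 with *Dbp* and -0.48 with *Arntl*, stellate cell markers -0.50 and 0.55, and red cell markers 0.55 and -0.58. The Kupffer cell and sinusoidal endothelial sums were between -0.0497 and 0.0745 with both genes, and neutrophil, cholangiocyte and lymphocyte sums were at -0.46, -0.30 and 0.24 with *Dbp*. The 8 stellate cell markers summed to 224 to 333 CPM and the 5 red cell markers to 195 to 484 CPM, with 0 markers at 0 in every library. The neutrophil sum, from 4 of 5 listed markers, was only 1.10 to 2.65 CPM. The lymphocyte sum, from 7 of 8, was only 1.13 to 3.90 CPM, so r with these sums is less precise. Total reads had an r of -0.030 with *Dbp* and -0.14 with *Arntl*. The part of these cells and of depth in the pattern was not tested.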

How the data were processed

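Poly-A RNA-seq was available for 10 *db/db* livers, 5 per vector. Per the labels and the methods, the authors aligned single reads with STAR 2.0.4b to GRCm38 and counted them on genes with featureCounts 1.4.5. The authors deposited CPM values, in 15236 lines for 15126 genes. The scaling step is not given in the sources used here. Each value was a whole number of reads (within 0.01 of a read) times the CPM of 1 read, 0.0282 to 0.0513 CPM, in 100% of cases, so reads could be recovered.

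The comparison between the vectors and some genes are not reported here. Correlations used log2(CPM + 1) with the mean of each vector group subtracted, two-sided exact permutation tests and Benjamini-Hochberg adjustment over the relations of a family. Genes were kept at a mean of 1 CPM or more over all livers (11027 genes). Alternatives were Spearman rho, no centring, a pseudocount of 0.1, size factors of DESeq2 1.42.0 and TMM factors of edgeR 4.0.16 (R 4.3.3) from the recovered reads, each library left out and, chosen after seeing the data, a replicate block.

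Positions, exon lengths and overlaps came from GENCODE M21 (GRCm38). The members and the lists of genes were chosen with earlier results of these data known. All 10 members, *Rgs16*, 6 further loop genes, *Bhlhe40* (added after its values were seen) and the genes most like *Dbp* and *Arntl* are named. Within groups no pair of libraries was a duplicate (lowest chi-square per degree of freedom 16.8).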

Additional observations from a re-analysis of the deposited data

Results flagged for a closer look

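In the 5 AAV8-Control livers, the highest and the lowest value of each of the 10 clock genes was compared with the others by Dixon's criterion (critical value 0.71), and 2 of the 10 genes held a liver beyond it, where chance flags about 1 in 20 groups. *Npas2* was at 5.08 CPM in AAV8-Control liver 1, with the other controls at 1.49 to 2.37 CPM. *Nr1d1* was at 101.4 CPM in AAV8-Control liver 3, with the others at 133 to 143 CPM. The share of all genes kept that this criterion flags is not given. Whether 2 of 10 differs from genes in general was therefore not tested.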

How the results depend on the processing

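The r of *Arntl* and *Dbp* ranged from -0.983 to -0.883 with a liver left out. Its p, adjusted over the 45 pairs, was under 0.05 when livers were pooled without centring (r = -0.94, 0.0045 by permutation), with DESeq2 size factors (r = -0.95, 0.0219 by exact permutation), with TMM scaling (r = -0.95, 0.025 by exact permutation) and without AAV8-Control replicate 1 (r = -0.983, 0.0469 by exact permutation). In every other setting this adjusted p was above 0.05 by exact permutation. It ran from 0.0859 without AAV8-Control replicate 3 to 0.214 with the replicate block. By Spearman rho it was 0.147, and without replicate 4 of the other vector it was 0.203. The number of pairs with an adjusted p under 0.05 was 3 without centring (*Per3* with *Nr1d2* and *Per2* with *Per3* besides *Arntl* with *Dbp*), 1 with DESeq2 size factors, 1 with TMM scaling, and 0 to 1 with a liver left out. Pairs with an exact p under 0.05 ranged from 6 to 11 with a liver left out. Without centring, 2 clock genes had a permutation p under 0.05 with *Rgs16*. These were *Cry1* (r = -0.75) and *Per1* (r = -0.66), with permutation p adjusted over the relations with *Rgs16* of 0.111 and 0.183. The causes were not tested.

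Livers with the same replicate number had deviations that correlated at 0.0751 to 0.314, and for 4 of the 5 numbers the control liver correlated best with the liver of its own number. Since replicate 3 was under 0.1 and neither the labels nor the study tie a number to a particular litter or day, they were not taken as pairs. With the replicate block, 6 pairs had an exact p under 0.05 and 0 an adjusted p under 0.05, the r of *Arntl* and *Dbp* was -0.92, and *Rgs16* turned to 0.61 with *Per1* and 0.19 with *Nr1d2*. Of the pairs called without the block, only *Arntl* with *Dbp*, *Per3* with *Nr1d2* and *Per3* with *Dbp* were among these 6. Each r with the block rests on 1 difference for each of the 5 numbers. So few orderings remain that an adjusted p under 0.05 was nearly out of reach, and the 0 decides nothing. At 16 to 119 reads per library, *Npas2* was the least precise of the 10. Alternatives for the comparison between the vectors were not run, since it is not reported.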
